A study of Arabidopsis thaliana with 12 samples.

Results

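The loci described here are the annotated gene models around the centromeres of Arabidopsis chromosomes 3 and 5. They were chosen by locus identifier alone, from AT3G29500 to AT3G43999 and from AT5G28000 to AT5G34999, leaving out AT3G41768 and AT3G41979. The rule took in 1666 of the 30926 rows of the count table. Of these, 1193 had at least 15 counts over the 12 libraries and are analysed below, 690 on chromosome 3 and 503 on chromosome 5. The other 473 loci held 2603 counts in all, and 46 of them had none.

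Small RNA (under 200 nt) was sequenced from the aerial tissue of 18-day-old plants, in 3 libraries for each of 4 genotypes. Col-0 is the wild type. The double mutant ein5-1 ski2-3 carries lesions in EIN5, a cytoplasmic 5′ to 3′ exonuclease, and in SKI2, a helicase of the cytoplasmic exosome pathway. The single mutant rdr6-11 carries a lesion in RDR6, the RNA-dependent RNA polymerase that makes the double-stranded precursors of secondary siRNAs, and the triple mutant rdr6-11 ein5-1 ski2-3 combines all 3 lesions. The study asked which small RNAs of ein5-1 ski2-3 plants depend on RDR6.

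Pericentromeric heterochromatin is packed with silenced transposons and their degraded copies. As background, such copies give rise mainly to heterochromatic siRNAs, which are made from RNA polymerase IV transcripts by RDR2 and DCL3 and direct DNA methylation back to the same sequences. RDR6 acts in another branch, on trans-acting siRNA (TAS) precursors, on some active transposons and, when RNA decay fails, on messenger RNAs. Because a siRNA matches every copy of its repeat, reads from such loci cannot be placed on 1 copy where copies are identical. Read length and strand of the counts are not given in the sources used here, so siRNAs cannot be separated from breakdown products of longer RNA. In whole aerial tissue, fewer cells of a type and less RNA per cell cannot be told apart either.

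Most of the loci are remnants. The RefSeq annotation of the TAIR10.1 assembly matched 1631 of the 1666, and classed 998 of the 1193 analysed as pseudogenes, 182 as protein-coding genes, 2 as tRNA genes and 4 as other RNA genes, with 7 unmatched. A product or note naming a transposon or a Sadhu element was found for 7 of the 1193, so transposon families are not named for the rest. The sequence itself shows the repeats: in the median pseudogene locus 39.9% of all 24-base windows occurred at least 2 times in the genome, against 6.07% in the median protein-coding locus of the set. By shared 16-base words, 607 of the 1186 loci with coordinates shared at least 20% of their words with another locus of the set. Average-linkage grouping on that share gave 15 groups of 8 or more loci, holding 179 loci, each called below by its member with the most counts.

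The sequences below (RefSeq, TAIR10.1) are 90-base stretches common to 3 members of 4 such groups, printed because the results turn on how these groups differ. Capitals mark bases that are the same in all 3 members compared. For the groups led by AT3G31630, AT3G30695 and AT5G31719 the stretch was identical in all 3 and is given once, so a read from it fits any of them. The 1st was also found in AT5G28715 on chr5:10767937-10768026 and AT3G30802 on chr3:12481746-12481835. For the group led by AT3G30668, 87 of the 90 bases were the same in all 3.
AT3G31630 (chr3:12857287-12857376, plus strand): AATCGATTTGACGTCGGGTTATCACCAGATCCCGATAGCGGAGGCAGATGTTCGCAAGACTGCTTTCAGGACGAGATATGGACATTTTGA
AT3G30695 (chr3:12248894-12248983, minus strand): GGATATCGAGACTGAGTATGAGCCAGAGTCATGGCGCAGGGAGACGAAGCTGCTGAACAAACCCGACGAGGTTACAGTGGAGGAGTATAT
AT5G31719 (chr5:11689941-11690030, minus strand): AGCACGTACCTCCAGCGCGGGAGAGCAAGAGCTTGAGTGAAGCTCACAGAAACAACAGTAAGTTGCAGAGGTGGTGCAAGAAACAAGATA
AT3G30668 (chr3:12216012-12216101, minus strand): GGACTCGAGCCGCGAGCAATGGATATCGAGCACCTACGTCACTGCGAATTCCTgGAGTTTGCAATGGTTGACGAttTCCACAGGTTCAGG
AT3G33058 (chr3:13605160-13605249, plus strand): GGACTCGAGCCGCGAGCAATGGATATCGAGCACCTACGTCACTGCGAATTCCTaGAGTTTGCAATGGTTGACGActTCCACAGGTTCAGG
AT5G31963 (chr5:11778631-11778720, plus strand): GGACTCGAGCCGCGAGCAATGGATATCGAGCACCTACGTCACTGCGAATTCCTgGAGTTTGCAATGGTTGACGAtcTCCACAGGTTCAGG

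Library totals lay between 2358724 and 2909767 counts, and the 1193 loci held 391774 counts over all libraries. Counts were unevenly spread: the median locus had 100 counts in all and 601 loci had at least 100. The protein-coding gene AT3G43990 alone held 12.6% of them, and the 10 loci with most counts 21.6%. Replicates 1 and 2 of ein5-1 ski2-3 differed by no more than sampling noise and were counted as 1 sample, which leaves 11 samples. Their mean chi-square over all rows with distinct profiles was 1.04, and other pairs within a genotype had 1.14 to 3.30. Over protein-coding rows alone it was 1.02, no lower than for Col-0 replicates 2 and 3, which were kept apart. The 3 mutated genes had at most 7, 4 and 5 counts per library for EIN5, SKI2 and RDR6, too few to check the genotypes. All 8 TAS rows were called lower in rdr6-11 than in Col-0 and in the triple mutant than in ein5-1 ski2-3. Leaf markers such as RBCS1A were present, with 632 to 1016 counts, and the floral genes AP3, PI and AG had at most 2. The root genes SHR and SCR had 0 to 28 and 1 to 20 counts. Small RNA counts on these genes do not measure their mRNA.

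Small RNA from these loci took up a larger share of the library in all 3 mutants than in Col-0. The 1193 loci held 0.755%, 0.751% and 0.752% of all counts in Col-0, against 1.76% and 1.42% in the 2 samples of ein5-1 ski2-3. They held 1.498%, 1.43% and 1.62% in rdr6-11, and 1.05%, 0.981% and 0.975% for the triple mutant. Every mutant sample lay above every Col-0 sample, and the triple mutant lay below both other mutants. The group means were 0.753% ± 0.00177 (SD, n = 3), 1.59% ± 0.240 (n = 2), 1.52% ± 0.101 (n = 3) and 1.00% ± 0.0395 (n = 3). The 2-sided exact permutation test gave p = 0.1 for rdr6-11 against Col-0 and for the triple mutant against rdr6-11. For both comparisons with ein5-1 ski2-3 the exact test gave p = 0.2. These are the smallest values such group sizes allow.

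The order of genotypes varied with the denominator. Ribosomal, tRNA and organelle rows took 88.1% to 88.3% of all counts in Col-0, 78.2% to 81.6% in ein5-1 ski2-3, 81.9% to 83.2% in rdr6-11 and 86.9% to 87.4% for the triple mutant. As a share of the remaining counts the loci held 6.39% ± 0.0275 in Col-0 (n = 3), 7.86% ± 0.261 in ein5-1 ski2-3 (n = 2), 8.72% ± 0.241 in rdr6-11 (n = 3) and 7.82% ± 0.156 for the triple mutant (n = 3). Every mutant sample again lay above Col-0, and rdr6-11 stood highest. Set against microRNA (MIR) genes the order changed. Per 100 MIR counts there were 31.5 ± 1.14 locus counts in Col-0, 53.0 ± 7.50 in ein5-1 ski2-3, 26.9 ± 0.218 in rdr6-11 and 49.6 ± 1.41 for the triple mutant. On that scale rdr6-11 was below Col-0 and the triple mutant above rdr6-11. MIR genes took 5.29% to 6.09% of the rdr6-11 libraries and 1.92% to 3.69% of the others. On the TMM scale 86 of 140 MIR genes were called higher in rdr6-11 than in Col-0 and 0 lower. The part of these shifts in the loci's shares was not tested.

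**Figure D1:**
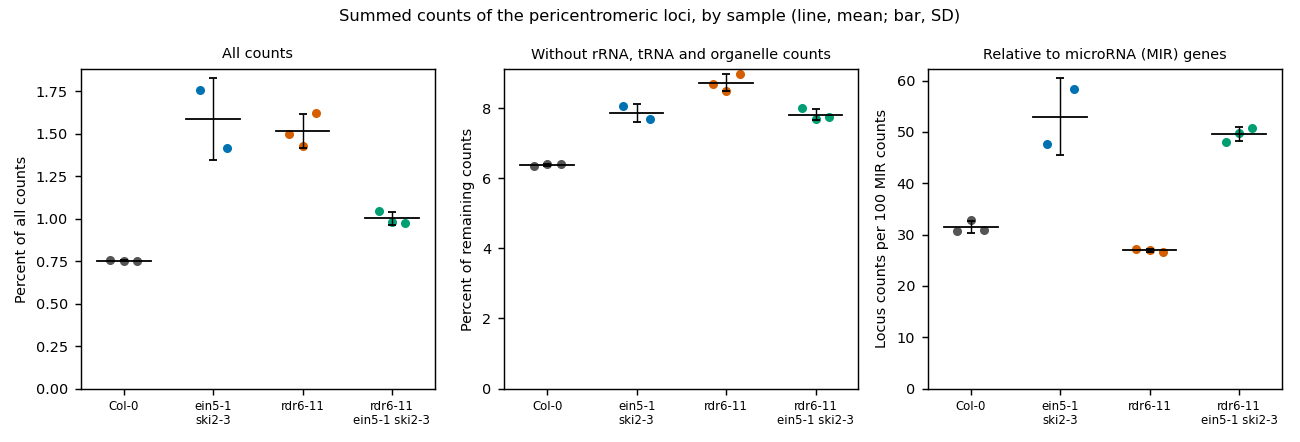
Summed counts of the 1193 loci in each of the 11 samples on 3 denominators, as percent of all counts, as percent of counts outside rRNA, tRNA and organelle rows, and per 100 MIR counts, with group mean and SD. The mutants lie above Col-0 in the first and second panels, and in the third the 3 rdr6-11 samples fall to 26.7 to 27.1, below Col-0.

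Row-by-row changes are therefore given on the edgeR scale with TMM factors, beside the median of all 18740 rows tested. In rdr6-11 against Col-0 the median locus stood 0.96 higher on the log2 scale, and the median of all rows -0.04, a distance of 0.99. In ein5-1 ski2-3 against Col-0 the distance was 0.34. In the triple mutant it was -1.03 against rdr6-11 and -0.36 against ein5-1 ski2-3. Another scaling shifts all rows nearly alike, so these distances are nearly fixed whatever the scale and say nothing on whether the loci's absolute level changed.

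**Figure D2:**
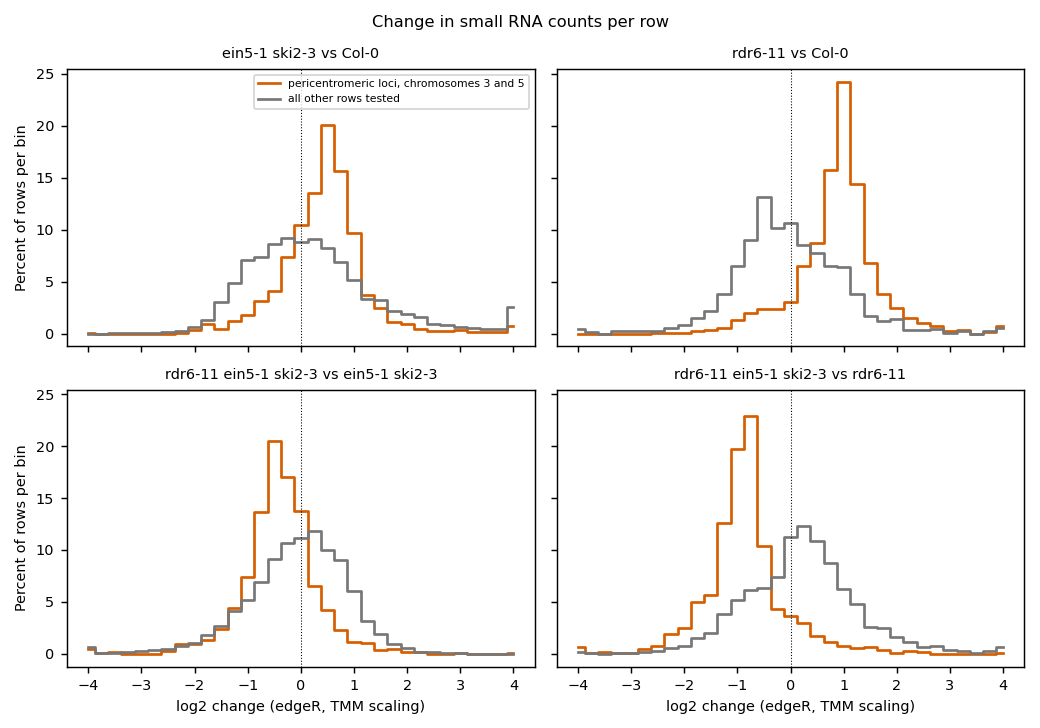
Distribution of log2 changes (edgeR, TMM scaling) in 4 comparisons for the 1193 pericentromeric loci and for all other rows tested, in bins of 0.25, with values beyond the axis counted in the outermost bins. The loci form a narrow peak shifted up in ein5-1 ski2-3 and rdr6-11 and down in both comparisons of the triple mutant.

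In rdr6-11 against Col-0 many loci rose and few fell. Of 1193 loci, 457 were called higher and 11 lower by edgeR's quasi-likelihood test with Benjamini-Hochberg adjustment over all rows, where 8.23% of all rows tested were called higher and 4.97% lower. Most of the higher calls were pseudogenes: 434 of 998 were called higher and 3 lower, with a median log2 change of 0.98. Of the 182 protein-coding genes 21 were called higher and 6 lower, with a median of 0.27. With MIR genes as the scale the median was 0.14, and 9 loci were called higher and 34 lower.

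The pattern held along both chromosomes. In bins of 0.5 Mb counted from the middle of each span, the median log2 change in rdr6-11 lay between 0.75 and 1.003 on chromosome 3 (28 to 94 loci a bin). On chromosome 5 it lay between 0.53 and 1.05. The lowest value there, at the outer left edge, rests on 19 loci, and without that bin the range starts at 0.69. Chromosome 3 had 237 of 690 loci called higher and chromosome 5 had 220 of 503.

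**Figure D3:**
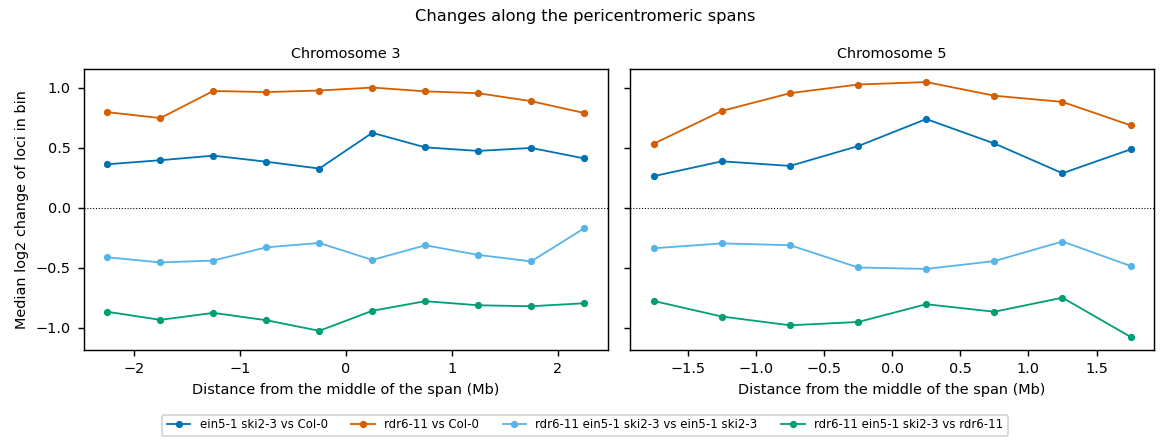
Median log2 change of the loci in 0.5 Mb bins by distance from the middle of the span on each chromosome, for 4 comparisons. In all bins the rdr6-11 and ein5-1 ski2-3 changes from Col-0 are above 0 and both changes of the triple mutant are below 0.

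The same direction was seen outside the 2 regions, so it is not described as particular to chromosomes 3 and 5. Of 1920 rows near the other 3 centromeres, 626 were called higher and 33 lower in rdr6-11, with a median of 0.86. Of 2364 pseudogene rows elsewhere in the genome 811 were called higher and 13 lower, with a median of 0.91. Protein-coding rows elsewhere had a median of -0.23, with 171 of 13845 called higher.

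The pseudogene AT5G32690 had a high level among the remnants, not scaled to its length. It is a 58519-base pseudogene of a Myb/SANT-like gene on chr5:12332283-12390801 (plus strand), with 33.6% of its windows repeated. The median pseudogene locus has 2339.5 bases. Sequence of AT5G32750 (chr5:12344378-12344467) lies within the span, and 38 of the analysed loci overlap another. The TMM-scaled level of AT5G32690 in CPM (counts relative to library size) was 127, 115 and 118 in Col-0, 199 and 168 in ein5-1 ski2-3, 238, 221 and 266 in rdr6-11, and 126, 132 and 136 for the triple mutant. All rdr6-11 samples lay above all others, and the triple mutant overlapped Col-0. The log2 change was 1.01 ± 0.10 (SE) in rdr6-11 against Col-0 (adjusted p = 1.56e-19) and 0.62 ± 0.11 in ein5-1 ski2-3 (adjusted p = 7.05e-07). From rdr6-11 to the triple mutant it fell by 0.88 ± 0.10 (adjusted p = 5.61e-16), a direction that turns when MIR genes set the scale.

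AT5G29075, a pseudogene on chr5:11136149-11146651 (minus strand), moved alike. Its CPM were 73.5, 70.2 and 70.6 in Col-0, 101 and 91.7 in ein5-1 ski2-3, 134, 124 and 162 in rdr6-11, and 86.2, 90.1 and 83.7 for the triple mutant. The 4 groups did not overlap, though the highest triple-mutant sample came close to the lower ein5-1 ski2-3 sample. The log2 change was 0.97 ± 0.12 in rdr6-11 (adjusted p = 1.15e-14) and 0.43 ± 0.13 in ein5-1 ski2-3 (adjusted p = 0.00411).

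On the TMM scale the group led by AT3G31630 was called higher in rdr6-11 and not in ein5-1 ski2-3, and the difference between these 2 mutants was not tested. The group was formed on shared sequence and described after its values were seen. AT3G31630 (chr3:12852502-12859789), AT5G28715 (chr5:10765648-10770477) and AT3G30802 (chr3:12479457-12484302), all on the plus strand, were the 3 members with most counts and share the first sequence above. AT3G31630 had 85.9, 82.2 and 85.9 CPM in Col-0, 96.9 and 89.4 in ein5-1 ski2-3, 152, 157 and 186 in rdr6-11, and 92.5, 76.3 and 72.7 for the triple mutant. Only rdr6-11 stood out, above every other sample. Summed over the 10 members, CPM were 636, 594 and 611 in Col-0, 667 and 576 in ein5-1 ski2-3, 1154, 1164 and 1407 in rdr6-11, and 685, 546 and 582 for the triple mutant. With TMM all 10 were called higher in rdr6-11 and none in ein5-1 ski2-3, where the mean was 1.01 times Col-0. Other scales gave another pattern. The group's median log2 change in ein5-1 ski2-3 was 0.94 with total counts and 0.58 with MIR scaling, and in rdr6-11 it was 1.42 and 0.18. AT3G31630 itself was called higher in ein5-1 ski2-3 on both (1.07, adjusted p = 4.99e-16, and 0.74, adjusted p = 0.000293), and with MIR scaling it was not called in rdr6-11 (0.13, adjusted p = 0.609). Their reads may be largely shared, so the 10 calls are not 10 independent observations.

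Most other groups had members called higher in both mutants. Over all rows tested, 11.6% were called higher in ein5-1 ski2-3 and 8.23% in rdr6-11. Members of these groups may share reads as well. The group led by AT3G30695 (14 loci) summed to 310, 322 and 309 CPM in Col-0, 646 and 486 in ein5-1 ski2-3, 609, 620 and 794 in rdr6-11, and 456, 372 and 362 for the triple mutant. All 14 were called higher in ein5-1 ski2-3 and all 14 in rdr6-11, and Col-0 lay below every mutant sample. The groups led by AT3G30668 (12 loci) and AT5G31719 (8 loci) reached 1.73 and 2.02 times Col-0 in ein5-1 ski2-3 and 2.11 and 2.39 times in rdr6-11. In the AT3G29641 group (8 loci), 7 were called higher in rdr6-11 and none in ein5-1 ski2-3. The groups led by AT5G33434 (13 loci), AT5G28120 (9 loci) and AT3G30680 (14 loci) had only 1 locus each called higher in ein5-1 ski2-3. In rdr6-11 these groups had 12, 8 and 10 called higher. Of the 15 groups, 14 were at 1.78 to 2.39 times Col-0 in rdr6-11 and at 0.969 to 1.46 times in the triple mutant. With MIR scaling the median change in rdr6-11 turned negative in 2 groups, and all 15 stood above rdr6-11 for the triple mutant.

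**Figure D4:**
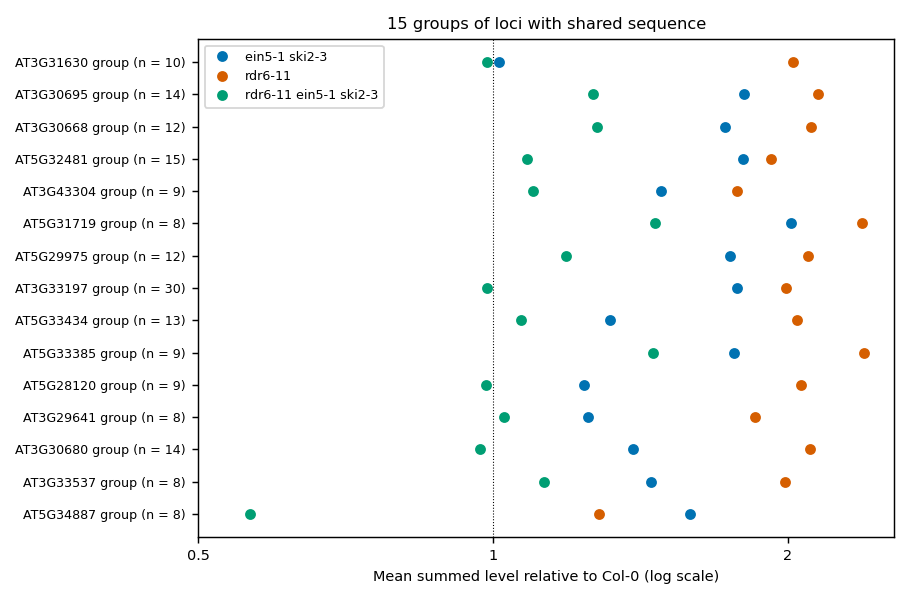
Mean summed level of each of 15 groups of loci with shared sequence, relative to Col-0 on a log axis, in the 3 mutants (TMM scaling). In the AT3G31630 group the ein5-1 ski2-3 point lies at 1.01, beside the triple mutant, while rdr6-11 lies at 2.02, a pattern that differs on other scales.

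The group led by AT5G34887 had another order of genotypes. Its 8 loci, all on chromosome 5 and 7 of them protein-coding, are short copies with a median length of 392 bases, annotated as ECA1 gametogenesis-related or lipid-transfer-like proteins. Summed CPM were 16.8, 17.4 and 23.7 in Col-0, 35.9 and 25.4 in ein5-1 ski2-3, 31.5, 20.2 and 22.7 in rdr6-11, and 4.83, 7.23 and 20.7 for the triple mutant. The Col-0 and rdr6-11 samples overlapped, and 1 triple-mutant sample lay among those of Col-0. Of the 8 loci, 7 were called lower in the triple mutant than in ein5-1 ski2-3, where 8.94% of all rows tested were. None was called lower in rdr6-11 against Col-0, where 4.97% of all rows were. In the median member 74.1% of the 24-base windows are repeated. Their reads may be largely shared, so the 7 calls are not 7 independent observations. A pair with the same annotation on chromosome 3, AT3G30385 and AT3G30387, had identical counts in every library: 5, 7 and 6 in Col-0, 19, 22 and 15 in ein5-1 ski2-3, 12, 7 and 9 in rdr6-11, and 1, 2 and 7 for the triple mutant. All their 24-base windows are repeated, so the reads do not say which copy they came from. The pair was lower in the triple mutant than in ein5-1 ski2-3 by 1.92 ± 0.45 on the log2 scale (log2 change -1.92, adjusted p = 0.000327).

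Sequence features went with small differences in the size of the change. Among the 601 loci with at least 100 counts, the 201 with most repeated windows (median 77.4%) had a median log2 change of 0.62 in ein5-1 ski2-3, and the 200 with fewest (median 22.0%) of 0.36. In rdr6-11 the values were 0.997 and 0.92. The 200 loci lowest in GC had a median of 0.82 in rdr6-11 and the 201 highest of 1.05. Per kilobase, the level in Col-0 was 4.83 CPM in the most repeated loci and 1.88 in the least. These are descriptions of loci that share reads, and carry no test.

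In ein5-1 ski2-3 against Col-0, 202 loci were called higher and 24 lower, where 11.6% of all rows tested were called higher and 8.7% lower. The members' median log2 change was 0.45, against 0.11 over all rows and 0.44 over 2364 pseudogene rows elsewhere, 318 of them called higher. Of the pseudogenes 187 of 998 were called higher and 11 lower, and of the protein-coding genes 15 of 182 were called higher and 11 lower. The count varied with the libraries used: without replicates 1 and 2 of ein5-1 ski2-3, 95 were called higher. It was 304 without rdr6-11 replicate 1, 304 without triple-mutant replicate 1 and 308 without triple-mutant replicate 3. The 24 lower calls became 14 without Col-0 replicate 2. DESeq2 called 122 higher and 13 lower, and scaling by total counts gave 704 higher and 4 lower.

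Some protein-coding genes called higher in ein5-1 ski2-3 had no count at all in Col-0. PMAT2 (AT3G29670, chr3:11527756-11529420), a malonyltransferase linked to detoxification of phenolic compounds, had 0 counts in all 3 Col-0 libraries, 17, 20 and 18 in ein5-1 ski2-3, 2, 1 and 0 in rdr6-11, and 4, 7 and 8 for the triple mutant. It was at least 9.34-fold higher in ein5-1 ski2-3 than a floor of 3 counts over the Col-0 group (adjusted p = 4.66e-09). AT3G32090, annotated as a WRKY-family transcription factor gene, had 0 counts in Col-0, 9 in each ein5-1 ski2-3 library, 0, 2 and 0 in rdr6-11, and 1, 2 and 1 for the triple mutant. It was at least 4.58-fold higher (adjusted p = 0.000207). The RING/U-box gene AT3G43430 had 0 in Col-0, against 9, 5 and 6 counts in ein5-1 ski2-3, at least 3.395-fold higher (adjusted p = 0.00248). AT3G32090, AT3G43430 and AT3G29590 (next) reached the minimum of 15 counts only through ein5-1 ski2-3, so a difference there was built into their being tested.

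A pair of other enzyme genes showed the same direction. AT3G29590 encodes a malonyltransferase of anthocyanins (At5MAT), and had 1, 0 and 2 counts in Col-0, 20, 16 and 17 in ein5-1 ski2-3, 2, 0 and 0 in rdr6-11, and 3, 2 and 2 for the triple mutant. Its ein5-1 ski2-3 libraries stood above all others, with a ratio to Col-0 of 8.997 (95% counting interval 2.92 to 45.0, adjusted p = 1.97e-05). In the triple mutant it was lower than in ein5-1 ski2-3 by 2.35 ± 0.51 (log2 change -2.35, adjusted p = 7.6e-05). AT3G29590 reached the count minimum only through ein5-1 ski2-3, so both differences were built into its being tested. ERD5 (AT3G30775), the mitochondrial proline dehydrogenase, had 0, 0 and 3 counts in Col-0, 15, 20 and 16 in ein5-1 ski2-3, 3, 2 and 2 in rdr6-11, and 8, 4 and 7 for the triple mutant. Its ratio to Col-0 was 8.66 (interval 2.80 to 43.4, adjusted p = 2.85e-05), and the change from ein5-1 ski2-3 to the triple mutant was -0.89 ± 0.40 (adjusted p = 0.123).

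Of the 182 protein-coding genes, 9 (4.95%) were called higher in the triple mutant than in rdr6-11 and 31 (17.0%) lower. Over all rows tested, 6.25% were called higher and 10.9% lower. From the 9 higher genes, 3 are given here. AT5G28919, of unknown function, had 3, 1 and 1 counts in Col-0, 29, 31 and 30 in ein5-1 ski2-3, 3, 5 and 1 in rdr6-11, and 27, 18 and 7 for the triple mutant. Both genotypes with ein5-1 ski2-3 lay above both without it, with a log2 change of 3.13 ± 0.49 (adjusted p = 3.46e-09) and of 2.48 ± 0.45 for the triple mutant over rdr6-11 (adjusted p = 1.13e-06). The acyltransferase gene AT3G29680 had 0, 2 and 1 counts in Col-0, 11, 11 and 18 in ein5-1 ski2-3, 2, 2 and 1 in rdr6-11, and 12, 8 and 7 for the triple mutant. AT3G42800 had 1, 2 and 0, then 18, 21 and 8, then 0, 1 and 0, and last 5, 7 and 8 counts in the same order. Neither of these differed between the triple mutant and ein5-1 ski2-3 by the test (adjusted p = 0.943 and 0.286), which does not show that they were equal.

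Of the 17 protein-coding genes listed for their textbook roles, 11 had at least 15 counts. The endoplasmic chaperone gene BIP1 (AT5G28540) had 51.9, 43.5 and 47.4 CPM in Col-0, 22.6 and 25.2 in ein5-1 ski2-3, 35.9, 32.4 and 30.1 in rdr6-11, and 36.0, 39.8 and 38.4 for the triple mutant. Col-0 lay above every mutant sample, and the log2 change was -1.01 ± 0.16 in ein5-1 ski2-3 (adjusted p = 3.25e-09). BIP1 was also called lower in rdr6-11 (log2 change -0.54, adjusted p = 0.00353). That call was lost with total counts (-0.12) and kept with MIR scaling (-1.35). GME (AT5G28840), an epimerase of the ascorbate pathway, fell by 1.08 ± 0.30 on the log2 scale in ein5-1 ski2-3 (adjusted p = 0.00229). DAYSLEEPER (AT3G42170), a domesticated hAT-type transposase needed for development, had 11, 6 and 6 counts in Col-0, 3, 11 and 5 in ein5-1 ski2-3, 3, 7 and 5 in rdr6-11, and 13, 4 and 10 for the triple mutant. Its libraries overlapped between genotypes, with a log2 change of -1.23 ± 0.47 in ein5-1 ski2-3 (adjusted p = 0.0439). With total counts as the scale BIP1, GME and DAYSLEEPER no longer passed in ein5-1 ski2-3 (log2 changes of -0.076, -0.14 and -0.30), nor with MIR scaling (-0.41, -0.55 and -0.73). CAM7 (a calmodulin), CUE1 (a plastid phosphoenolpyruvate translocator) and PAP26 (an acid phosphatase) passed in no comparison. The starch-related orphan gene QQS (AT3G30720) had 7 counts in all, 5 of them in 1 ein5-1 ski2-3 library, and stayed below the minimum.

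Sadhu elements, non-coding retrotransposons, were 4 of the loci and were singled out after the annotation was read. SADHU4-1 (AT5G28913) had 1 count in each Col-0 library, 15, 13 and 8 in ein5-1 ski2-3, 1, 2 and 2 in rdr6-11, and 6, 11 and 8 for the triple mutant. Its 2 genotypes with ein5-1 ski2-3 lay above the others. The ratio of ein5-1 ski2-3 to Col-0 was 6.11 (95% counting interval 1.93 to 31.0, adjusted p = 0.00239). SADHU1-3 (AT5G28626) had 6, 3 and 2 counts in Col-0, 21, 27 and 10 in ein5-1 ski2-3, 8, 16 and 21 in rdr6-11, and 9, 9 and 6 for the triple mutant. It was higher in ein5-1 ski2-3 by 1.38 ± 0.45 (adjusted p = 0.0129) and in rdr6-11 by 1.56 ± 0.45 (adjusted p = 0.00625). On the TMM scale ein5-1 ski2-3 replicate 3 lay below the highest Col-0 sample, so these genotypes overlapped. SADHU3-2 and SADHU7-2 had 0 counts in Col-0 and at most 4 in any library.

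The 11 loci called lower in rdr6-11 were 6 protein-coding genes, 3 pseudogenes and 2 tRNA genes. BIP1, described above, was among these protein-coding genes. AT3G43990 (chr3:15782538-15785184, minus strand), a gene for a BAH-domain protein, held most counts of all, with 2172, 2239 and 2222 CPM in Col-0, 907 and 1053 in ein5-1 ski2-3, 1238, 1257 and 1191 in rdr6-11, and 1829, 1840 and 1918 for the triple mutant. The 4 groups did not overlap, and Col-0 was highest. The log2 change was -1.17 ± 0.10 in ein5-1 ski2-3 (adjusted p = 9.64e-33) and -0.85 ± 0.08 in rdr6-11 (adjusted p = 5.68e-22). AT5G34790 (chr5:12966080-12968155, plus strand) had 230, 231 and 240 CPM in Col-0, 88.2 and 95.7 in ein5-1 ski2-3, 133, 129 and 109 in rdr6-11, and 221, 197 and 203 for the triple mutant. The order of genotypes was the same as for AT3G43990. Both stayed lower in these 2 mutants under all 4 other scalings.

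Among rows with high counts, the 5 whose profile over the 12 libraries was nearest to AT3G43990 were organelle genes. They were ATMG01390, ATMG00020, ATCG01210, ATCG00920 and ATMG00030, at root mean square distances of 0.046 to 0.067 in log2 counts scaled to library totals and centred. The nearest row to AT5G34790 was AT3G43990. Neither locus shares a 24-base window with the plastid or the mitochondrial genome. The part of organelle and ribosomal RNA fragments in these counts was not tested. Without AT3G43990 the summed share was 0.585% ± 0.00707 in Col-0 (n = 3), 1.44% ± 0.245 in ein5-1 ski2-3 (n = 2), 1.39% ± 0.106 in rdr6-11 (n = 3) and 0.812% ± 0.0405 for the triple mutant (n = 3).

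The tRNA genes AT5G32017 (tRNA-Asp) and AT3G30345 (tRNA-Lys) were also lower in rdr6-11, by log2 changes of -0.88 ± 0.11 and -0.94 ± 0.19 (adjusted p = 3.9e-14 and 9.54e-06). AT5G32017 had 179, 173 and 178 CPM in Col-0, 109 and 122 in ein5-1 ski2-3, 89.6, 101 and 95.9 in rdr6-11, and 115, 128 and 120 for the triple mutant. Its fall in ein5-1 ski2-3 turned into a rise of 0.31 when total counts set the scale and 0.01 with MIR scaling. AT3G30345 has near-identical tRNA copies elsewhere, since all of its 24-base windows are repeated. AT3G42240 (log2 change -0.86 ± 0.12 in rdr6-11, adjusted p = 1.22e-11) and AT5G34790 were the named pseudogenes among the 11. The chlorophyll a-b binding family gene AT5G28450 (-0.67 ± 0.23, adjusted p = 0.0289), AT5G28750, a thylakoid translocase-like gene (8, 9 and 9 counts in Col-0 and 3, 3 and 1 in rdr6-11), and AT3G43220 (9, 7 and 5 against 4, 3 and 1) had few counts. The calls of AT5G28450 and AT3G43220 were lost without single replicates.

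On the TMM scale, adding rdr6-11 to ein5-1 ski2-3 went with lower, not higher, levels at most called loci. In the triple mutant against ein5-1 ski2-3, 21 loci were called higher and 175 lower, where 6.05% of all rows tested were called higher and 8.94% lower. The median log2 change was -0.41, against -0.05 over all rows. Without replicates 1 and 2 of ein5-1 ski2-3, 64 were called lower, and 282 without rdr6-11 replicate 1. Among pseudogenes 157 of 998 were lower and 10 higher. Of 2364 pseudogene rows elsewhere 326 were lower and 21 higher, with a median of -0.44. The interaction, which compares the RDR6 effect with and without ein5-1 ski2-3, was called for 20 loci above and 518 below 0, where 7.82% and 12.0% of all rows were called. Its median was -1.39, and the groups led by AT3G31630, AT3G30695, AT3G30668, AT5G32481, AT3G43304, AT5G31719, AT5G29975 and AT5G33385 were called below 0 in full. This too was not particular to the 2 regions. Of 2364 pseudogene rows elsewhere 987 were called below 0 and 21 above, with a median of -1.38. Of 1920 rows near the other 3 centromeres 708 were called below 0 and 56 above, with a median of -1.23. With MIR scaling the AT3G31630 group had a median interaction of -0.14. On that scale the triple mutant against ein5-1 ski2-3 had a median of -0.30, with 20 loci called higher and 66 lower. As a share of all counts the triple mutant stood at 0.632 times ein5-1 ski2-3. Outside rRNA, tRNA and organelle rows the ratio was 0.994 and per MIR count 0.935, and samples overlapped in both.

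Against rdr6-11, the triple mutant had 523 loci called lower and 15 higher, where 10.9% and 6.25% of all rows tested were called. The median log2 change was -0.87, against 0.15 over all rows. Of 2364 pseudogene rows elsewhere 1001 were called lower and 17 higher, with a median of -0.92. By mean CPM, 942 of the 1193 loci were highest in rdr6-11, 131 in ein5-1 ski2-3, 78 in Col-0 and 42 for the triple mutant. With MIR genes as the scale the median was 0.60, with 362 called higher and 5 lower. MIR genes themselves were called lower in 101 of 140 in this comparison.

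One locus lost nearly all its small RNA in the triple mutant. AT3G30820 (chr3:12529843-12531235, plus strand), annotated as a retrotransposon ORF-1 protein gene, had 67, 49 and 69 counts in Col-0, 94, 84 and 79 in ein5-1 ski2-3, 116, 134 and 120 in rdr6-11, and 1, 7 and 2 for the triple mutant. The triple mutant lay far below every other library. The log2 change was -5.17 ± 0.27 against rdr6-11 (adjusted p = 3.77e-77) and -4.11 ± 0.31 against ein5-1 ski2-3 (adjusted p = 1.14e-37). Only 2.19% of its windows are repeated. Of its 8 neighbouring loci with at least 15 counts, 5 were called lower in the triple mutant than in rdr6-11. Of all 1193 loci, 43.8% were called lower there. The 5 neighbours had log2 changes from -0.58 to -1.20 (AT3G30816, adjusted p = 4.87e-09). The other 3, AT3G30814 (-2.82), AT3G30821 (-1.17) and AT3G30831 (-0.78), had few counts and were not called. AT3G30819 had 63, 66 and 75 counts in rdr6-11 and 49, 48 and 40 for the triple mutant, a log2 change of -0.58 (adjusted p = 0.0105). AT3G30825 had 85, 101 and 112 against 60, 51 and 59, a change of -0.82 (adjusted p = 1e-05). The Ulp1 protease family gene AT5G28235 was also lowest in the triple mutant, with 1, 0 and 0 counts in the triple mutant and 6, 7 and 12 in rdr6-11.

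The pseudogenes AT5G33250, AT3G32043 and AT3G31475 had 0 counts in the triple mutant. In rdr6-11 they had 3, 7 and 5, then 4, 7 and 5, and 7, 2 and 2 counts. They were at least 5.02-fold, 5.36-fold and 3.68-fold lower than in rdr6-11, against a floor of 3 counts over the group (adjusted p = 0.000558, 0.000323 and 0.00669), and reached the minimum of 15 counts only through rdr6-11. In the other direction AT3G43260, a deoxyhypusine-related gene, had 18, 17 and 14 counts in the triple mutant, 5, 7 and 9 in rdr6-11, 2, 1 and 0 in ein5-1 ski2-3 and 2, 0 and 2 in Col-0. The triple mutant lay above all others, with a ratio of 23.4 to ein5-1 ski2-3 (95% counting interval 7.54 to 117, adjusted p = 1.56e-12).

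**Figure D5:**
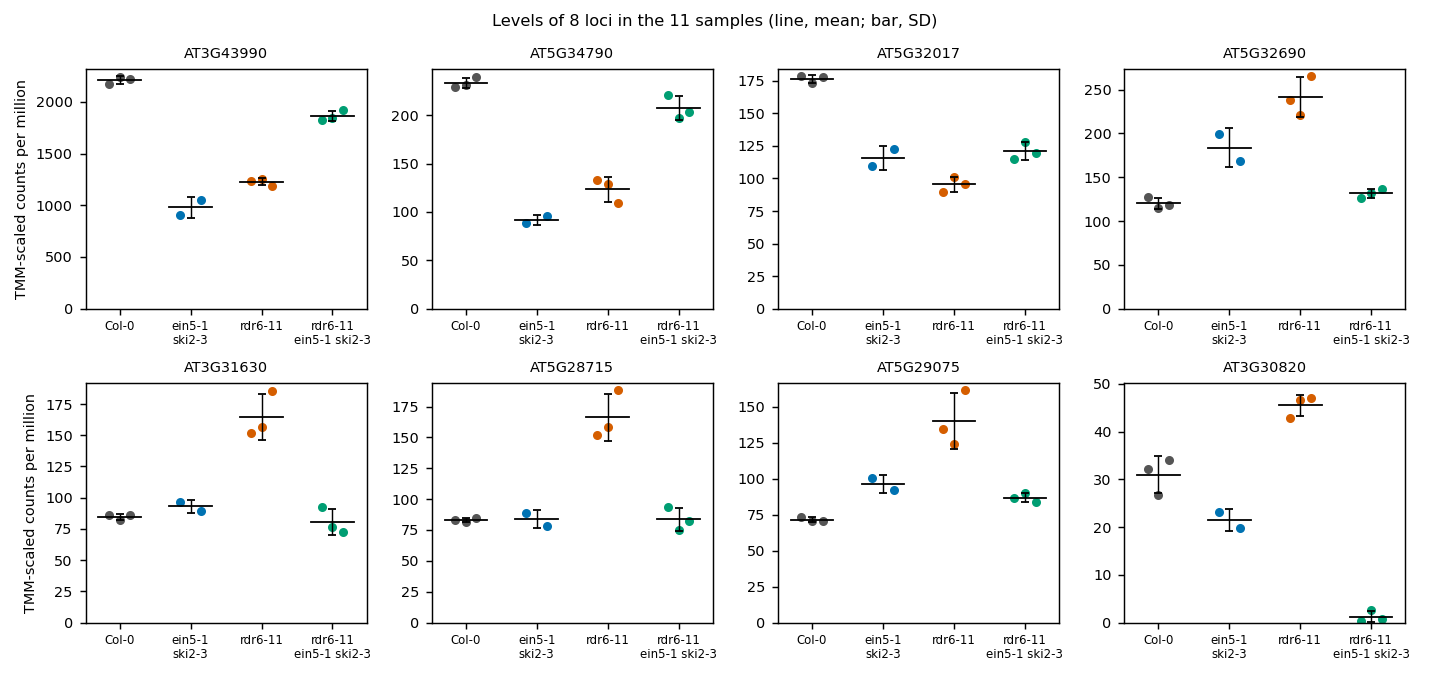
TMM-scaled CPM of 8 loci in the 11 samples, with group mean and SD. AT3G43990, AT5G34790 and AT5G32017 are highest in Col-0, the next 4 are highest in rdr6-11, and AT3G30820 is near 0 for the triple mutant, at 1.21 on average.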

How the data were processed

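Small RNA counts from 12 libraries were analysed, 3 for each of 4 genotypes. The deposited table holds whole-number counts per gene model made by the authors. Per the submitters' processing notes the build was TAIR10, and the tools listed there, with no role given, are DESeq, Bowtie2, Bowtie and CASAVA 1.8.2. The handling of multiply matching reads, read length and strand are not given in the sources used here. The labels call the replicates biological. The pericentromeric loci, gene lists and tests were chosen with earlier results of these data known.

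Rows with at least 15 counts in total (18740) were tested together in edgeR 4.0.16 (R 4.3.3; TMM, glmQLFit, glmQLFTest), with Benjamini-Hochberg adjustment over all rows and a threshold of 0.05. The scripts were tested on simulated data. With the minimum lowered in proportion to the libraries left, 1134 loci reached it without the rdr6-11 libraries. Of these, 453 were called higher in rdr6-11 than in Col-0, an alternative added after seeing the data. Replicates 1 and 2 of ein5-1 ski2-3 were summed, a departure from a fit to 12 libraries. Shares were compared with exact permutation tests over samples. Intervals and the floor of 3 counts cover counting error only. Gene classes, coordinates and sequence came from RefSeq TAIR10.1, matched by locus identifier. Named loci were the 8 with most counts, up to 4 with the largest non-overlapping called change per comparison and direction, up to 3 leading each class, a list of textbook genes, 8 lower in rdr6-11, and pairs with identical counts; group leaders and Sadhu elements were added. Alternatives were other scalings, filters, DESeq2 1.42.0, 12 libraries, a replicate block and leaving out each library.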

Additional observations from a re-analysis of the deposited data

Results flagged for a closer look

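The effect of rdr6-11 differed between the Col-0 and the ein5-1 ski2-3 background by the interaction test (edgeR's quasi-likelihood test, 11 samples). The interaction was called below 0 for 518 loci and above 0 for 20, where 12.0% and 7.82% of all rows tested were called. The named loci that showed this difference, with counts over 3 in every genotype, are given here by their interaction on the log2 scale.

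Below 0 were AT3G30820 at -4.66, SADHU1-3 (AT5G28626) at -2.28, and AT3G30385 and AT3G30387 at -2.11 and -2.11. The last pair had identical counts in every library, so they are not separate observations. AT5G32690 stood at -1.49, AT3G31630 at -1.17, AT5G28824 at -1.17, AT5G29075 at -1.12, AT3G30802 at -1.04 and AT5G28715 at -1.01. AT3G31630, AT3G30802 and AT5G28715 share sequence and may share reads. AT3G41761 at -0.96 and AT3G41762 at -0.93 have identifiers next to a ribosomal RNA gene left out by the rule.

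Above 0 were AT5G28750 at 3.25, AT5G33370 at 3.12, AT5G34790 at 2.09, AT3G33002 at 2.07, DAYSLEEPER (AT3G42170) at 2.06 and AT3G29762 at 2.00. AT3G43990 stood at 1.77, GME (AT5G28840) at 1.59, AT3G30345 at 1.499, AT3G42240 at 1.43, AT3G43720 at 1.43, BIP1 (AT5G28540) at 1.22 and AT5G32017 at 0.95. AT3G33002 and AT3G29762, annotated as pseudogenes of a ribosomal protein gene and an RNA polymerase gene, share 318 and 43 of their 24-base windows with the plastid genome. With total counts 9 of these 13 loci above 0 were no longer called: AT5G33370, AT3G33002, AT3G42170, AT3G29762, AT5G28840, AT3G30345, AT3G43720, AT5G28540 and AT5G32017. With MIR scaling 10 of the 12 below 0, which include the identical pair, were no longer called, the others being AT3G30820 and AT5G32690. On that scale the median interaction over all rows was 0.91, and 34 loci were called above 0 and 68 below.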

How the results depend on the processing

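The median change of the loci kept its direction in all settings tried but 1: scaled to MIR genes, the triple mutant stood above rdr6-11 by 0.60. Counts of calls moved by over 1.5 times in 40 of 254 recomputations. Scaled to total counts, ein5-1 ski2-3 against Col-0 gave 704 higher and 4 lower, rdr6-11 against Col-0 6 lower, the triple mutant against ein5-1 ski2-3 5 higher and 522 lower, and the interaction 5 above 0. Scaled to MIR genes, the same comparisons gave 465 and 7, then 9 higher and 34 lower, then 66 lower, and for the triple mutant against rdr6-11 362 higher and 5 lower. The interaction then had 34 above 0 and 68 below, and the ratio of summed shares was 0.854 for rdr6-11 to Col-0 and 1.84 for the triple mutant to rdr6-11 (exact p = 0.1 for both). DESeq2 called 122 higher and 13 lower, 7 lower in rdr6-11, 9 higher and 85 lower, and 8 higher and 331 lower, in that order. Without the count minimum, 11 were higher in the triple mutant than in ein5-1 ski2-3 and the interaction had 13 above 0. The cause of these changes was not tested.

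Leaving out single libraries, or replicates 1 and 2 of ein5-1 ski2-3 together, gave 95 to 308 higher and 14 to 23 lower in ein5-1 ski2-3, 372 to 501 and 7 to 11 in rdr6-11, 9 to 20 and 64 to 282 in the triple mutant against ein5-1 ski2-3, 11 to 15 and 393 to 552 against rdr6-11, and 12 to 20 and 375 to 573 for the interaction. Ratios of summed shares ranged from 1.88 to 2.33, 1.94 to 2.07, 0.570 to 0.707 and 0.641 to 0.685. The 95, 64 and 375 come from leaving out the 2 libraries, and with single libraries the lowest were 177, 148 and 453. Without replicates 1 and 2 of ein5-1 ski2-3 its lone sample was assumed to vary like the other groups. Replicate numbers did not pair the samples: of 18 same-number pairs, 0 correlated above 0.1 (-0.150 to 0.051). With 12 libraries and the replicate block, 268 were higher and 18 lower in ein5-1 ski2-3, 483 and 10 in rdr6-11, 16 and 249, and 15 and 522 in the triple mutant, and 19 and 564 for the interaction.

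Of 1252 recomputations for single loci, 139 lost and 12 gained a call, and 7 reversed. AT5G32017 in ein5-1 ski2-3 went to 0.31 with total counts and 0.0069 with MIR scaling. The change of AT5G28715, ein5-1 ski2-3 vs Col-0, was 0.953 with total counts and 0.607 with MIR scaling, both called (adjusted p = 5.65e-13 and 0.00411), -0.0263 with TMM over rows other than rRNA, tRNA and organelle rows, and -0.0619 (without ein5-1 ski2-3 replicates 1 and 2) to 0.224 with libraries left out. That of AT3G30802, ein5-1 ski2-3 vs Col-0, was 0.938 and 0.594, both called (adjusted p = 5.18e-12 and 0.00577), -0.0413, and -0.0470 to 0.215, with -0.0109 without ein5-1 ski2-3 replicate 2. Of loci with fewer than 100 counts 52 of 592 were called higher in rdr6-11, and of those with at least 100, 405 of 601.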
